A study of Mus musculus with 7 samples.

Results

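The genes described here are 30 that encode the engulfment GTPases and the actin machinery they act on, measured in macrophages sorted from glioblastoma xenografts after treatment with the histone deacetylase inhibitor Pracinostat or its solvent. They were chosen by gene symbol from their known roles, with earlier results of these data known but by no threshold on measured values, and all 30 have a row among the 25571 of the deposited count table. They fall into 14 genes for GTPases, exchange factors, adaptors and the effector kinase PAK1, and 16 genes for WAVE and WASP proteins, the Arp2/3 complex, myosins and actin-binding proteins. The cells were CD11b+ tumour-associated macrophages, sorted by flow cytometry from dissociated T387 glioblastoma xenografts that grew orthotopically in brains of NSG mice. This strain has no T, B or NK cells, so drug and solvent groups alike were measured in a host without lymphocytes. Pracinostat-treated mice (n = 4 libraries) received 30 mg/kg by mouth 4 times a week for 3 weeks, starting 7 days after implantation. DMSO mice (n = 3 libraries) received the same solvent mixture, which contains DMSO, without drug. The labels also give 3 mg/kg for the prepared drug, call the samples biological replicates and do not say which animals they came from or whether cells of several animals were pooled. P-values therefore measure the spread between these libraries.

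Engulfment needs actin to be rebuilt under the membrane that touches the target. In the classical pathway, receptors for dying cells recruit CRK-family adaptors and the ELMO and DOCK proteins, which together load RAC with GTP, and RhoG can act upstream through ELMO. RAC switches on the WAVE complex and CDC42 switches on WASP, both of which drive the Arp2/3 complex to nucleate the branched actin of the phagocytic cup, while RhoA acts through myosin contraction and tends to oppose uptake of dying cells. Macrophages and microglia use this machinery for surveillance and migration as well as for phagocytosis.

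Total counts ran from 10142753 to 16950597 per library, with 16319 to 19244 genes detected. The members took 1.14 to 1.24% of the counts of a library. Itgam, which encodes the sorted antigen CD11b, stood at 1318 to 1688 CPM (counts scaled to library size with TMM factors) with DMSO and 1448 to 2580 CPM with Pracinostat, and Csf1r, the receptor of the macrophage growth factor, stood at 1741 to 3004 CPM. The following differences between libraries stood beside the results. Col1a1, a fibroblast collagen, reached 702.0 CPM in DMSO replicate 2 and 439.9 CPM in Pracinostat replicate 1, and nowhere else exceeded 32.2 CPM. These 2 are the collagen-rich libraries. Markers of monocyte-derived macrophages held 0.120 to 0.231% of counts with DMSO and 0.0568 to 0.143% with Pracinostat, with 0 of 8 genes on the higher side. Those of homeostatic microglia held 0.235 to 0.326% and 0.288 to 0.494%, with 7 of 8 on the higher side. None of these 16 markers was at 0 in all libraries. Markers of neutrophils held at most 0.0164% of counts in a library, those of dendritic cells 0.0128%, and those of lymphocytes 0.00015%. Those of endothelial and mural cells held 0.0102 to 0.0388%. Oligodendrocyte markers held 0.100% in Pracinostat replicate 1, one of the collagen-rich libraries, and 0.0186 to 0.0376% in the others. In sorted bulk RNA, fewer cells of a type and less RNA per cell cannot be told apart.

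No member of the module differed between the groups by the test used. Of the 30 genes, 29 passed the filter on low counts and were tested with edgeR's quasi-likelihood test, with Benjamini-Hochberg adjustment over all 15822 genes tested. Of these 29, 0 were called higher and 0 lower at an adjusted p of 0.05, and the share called over all genes was 0%. The adjusted p of each was 1.00 when rounded. At an unadjusted p of 0.05 the members gave 0 as well, where 4.18% of all genes lay, and the smallest unadjusted p was 0.0877, for Myo1e. DESeq2 called 0 members (0.171% of all genes) and limma-voom called 0 (0% of all genes). Each tool also had 0 members under an unadjusted p of 0.05, against 5.05% and 5.03% of all genes. No member had groups that did not overlap, against 6.1% of all genes. Log2 fold changes, always Pracinostat minus DMSO, ran from -0.25 to 0.36, with 12 positive and 17 negative (52.3% of all genes were positive) and a median of -0.03, beside a median of 0.02 over all genes.

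The intervals show how far these data bound a change. For all 29 tested members the 95% interval of the fold change lay inside a 2-fold change in either direction, the outermost bounds being -0.69 and 0.78 on the log2 scale. Over all genes tested 41.4% had such an interval, and over the 4206 genes at least as abundant in CPM as Pak1, the least abundant tested member, 92.2% did. Inside a 1.5-fold change lay the intervals of 24 of 29 members, against 16.7% of all genes and 58% of those 4206 genes. The 5 members whose intervals reached past 1.5-fold were Dock1, Dock8, Was, Arpc3 and Myo1e.

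**Figure D1:**
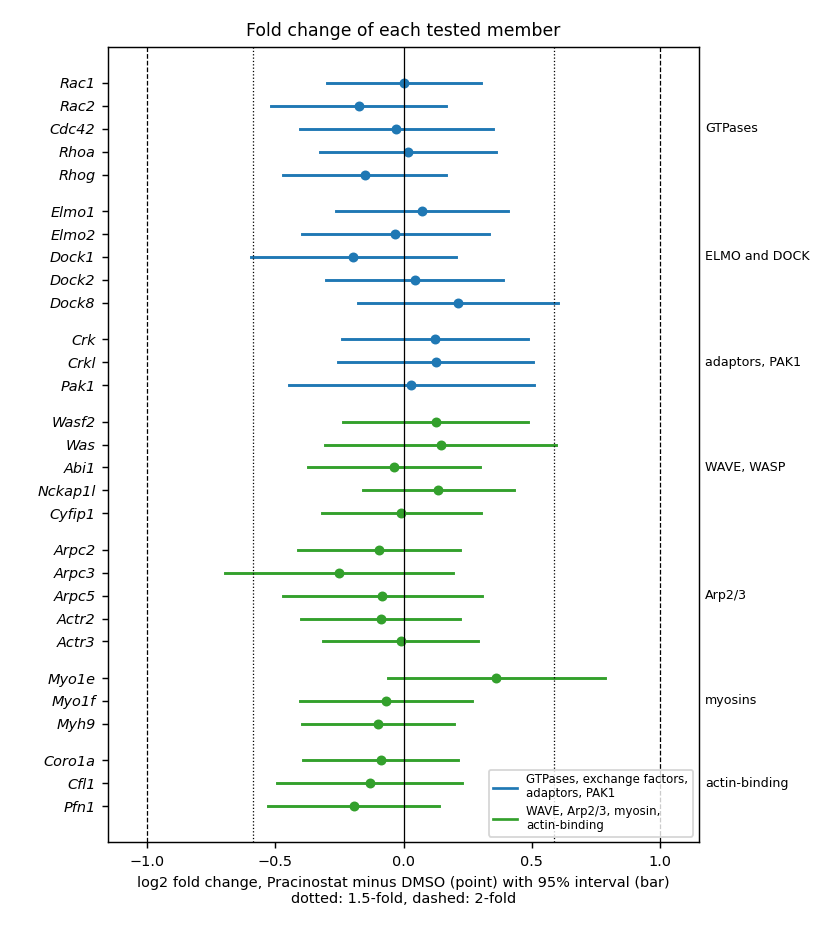
Log2 fold change (Pracinostat minus DMSO, x axis) of the 29 tested members, grouped by role, with points for the edgeR estimate and bars for its 95% interval. Every bar crosses 0 and ends inside the dashed lines at 2-fold, and the bar of Myo1e reaches farthest, to 0.78.

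Rac1, the broadly expressed RAC that drives lamellipodia and phagocytic cups, stood at 359.8, 321.5 and 388.1 CPM in DMSO replicates 1 to 3 and at 362.8, 365.2, 356.8 and 342.2 CPM in Pracinostat replicates 1 to 4. The DMSO values bracket all the Pracinostat values. Its log2 fold change was 0.0012 ± 0.14 (SE), with a 95% interval of -0.30 to 0.30, and it had the smallest spread of the tested members over the 7 libraries, a coefficient of variation of 5.79%. Rac2, the RAC of blood cells, stood at 248.7, 185.5 and 212.4 CPM with DMSO and at 203.8, 171.4, 176.7 and 212.0 CPM with Pracinostat. Both groups share the range from 185.5 to 212.0 CPM. The fold change was -0.17 ± 0.16 (SE, unadjusted p = 0.291, edgeR adjusted p = 1.00).

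Cdc42, which acts on WASP and on filopodia, averaged 294.0 ± 37.3 CPM (SD, n = 3) in DMSO libraries and 288.4 ± 60.1 CPM (SD, n = 4) in Pracinostat libraries. Its highest value, 376.2 CPM, and its lowest, 239.9 CPM, were both in Pracinostat libraries, replicates 1 and 3. Rhoa, the GTPase of myosin contractility, averaged 366.6 ± 59.5 CPM (SD, n = 3) and 371.1 ± 41.5 CPM (SD, n = 4). Rhog, which binds ELMO, came closest to separate groups among the GTPases. It stood at 173.9, 158.2 and 167.5 CPM with DMSO and at 165.8, 145.0, 136.0 and 152.9 CPM with Pracinostat, so that only Pracinostat replicate 1 lay within the DMSO range. Its fold change was -0.15 ± 0.15 (SE, unadjusted p = 0.323, edgeR adjusted p = 1.00). With total counts in place of TMM scaling its groups no longer overlapped, where 6.1% of all genes did not. The same held without Pracinostat replicate 1 (10.7% of all genes) and without DMSO replicate 2 (13.6%). These libraries held the only overlapping values, so leaving out either fixed that outcome in advance.

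The count of Rac1 carries a limit of its own. In the GENCODE M21 annotation (GRCm38) a Rac1 transcript and a transcript of Daglb, a gene on the opposite strand, share 2309 bases at 100% identity. Daglb had 3601 counts on average beside 4982 for Rac1. The library kit keeps strand, but whether the authors' counting used it is not stated in the labels, and reads of the 2 genes may not be separated. Daglb itself had a fold change of 0.16 ± 0.18 (SE), also not called. Cyfip1 shares 1316 bases with Nipa2 on the opposite strand, whose mean count was 7.69% of that of Cyfip1. At an identity of at least 95% over at least 300 bases, transcripts of other genes matched Cfl1 and Rhoa too, and their rows in the table held at most 0.43% of the member's counts. For Actr3 and Arpc2 a similar pseudogene transcript was found under a symbol that the table does not use, and the row Actr3-ps held 1 to 20 counts per library against 7632 to 12614 for Actr3.

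Levels of different genes can be compared only per length, here as CPM per kilobase of the longest coding transcript in GENCODE M21, averaged over the 7 libraries. On that scale Rhoa stood at 168.0, Cdc42 at 137.9, Rhog at 118.9, Rac1 at 85.7 and Rac2 at 66.3 CPM per kilobase. The order of Rac1 and Rac2 depends on the length used, since with the median length of the coding transcripts they stood at 110.0 and 122.4. The most abundant members were downstream, with Cfl1 at 460.7, Pfn1 at 407.8 and Myh9 at 357.6 CPM per kilobase by the longest transcript. Pak1 (15.3) and Crkl (13.9) were the lowest tested members by that length. By the median length Pak1 was the lowest, at 16.8, while Crkl stood at 89.9, above Abi1 (40.0) and Was (44.4), so the ranks of members depended on the length used.

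**Figure D2:**
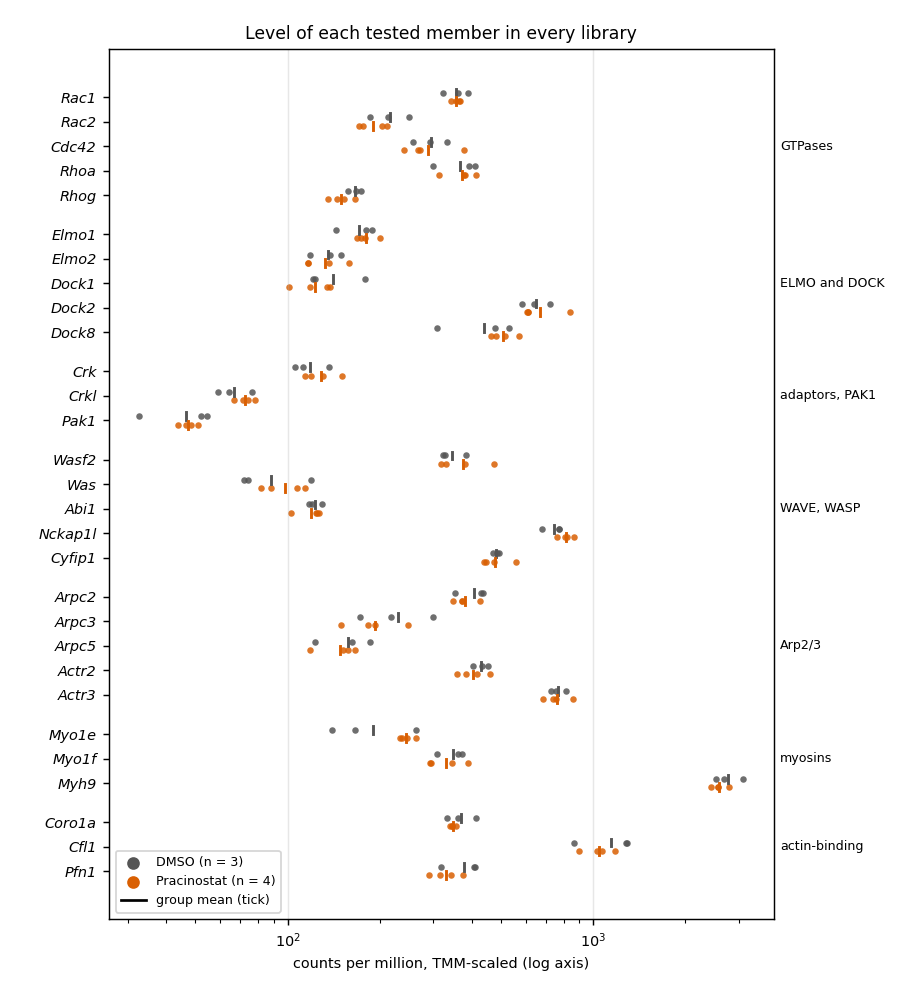
Level of each tested member in every library (x axis, TMM-scaled CPM on a log axis, not divided by length), with points for libraries and ticks for group means, DMSO in grey and Pracinostat in orange. Points of the groups overlap for all 29 members, and Myo1e and Dock8 show a DMSO library far from the other DMSO libraries.

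The exchange factors that load GTP onto these switches gave estimates on either side of 0. Elmo1, the scaffold that holds DOCK proteins at the membrane, stood at 144.4, 180.6 and 189.6 CPM with DMSO and at 168.4, 173.9, 200.2 and 179.2 CPM with Pracinostat. Its paralogue Elmo2 stood at 137.9, 149.2 and 118.8 CPM with DMSO and at 117.1, 116.7, 136.9 and 158.9 CPM with Pracinostat, so that the Pracinostat range enclosed all DMSO values. Dock1, the DOCK180 protein of the dying-cell pathway, stood at 122.6, 179.1 and 121.0 CPM with DMSO and at 138.0, 134.2, 118.6 and 101.4 CPM with Pracinostat. Its highest value was in DMSO replicate 2, a collagen-rich library, and its fold change of -0.19 became 0.01 without that library. The part of other cell types in this was not tested.

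Dock2, the RAC exchange factor of blood cells, was the most abundant per length of the ELMO and DOCK members. It stood at 102.8 CPM per kilobase against 19.2 for Dock1, and the order is the same with the median length (174.1 and 50.5). Exchange factors outside the module were not put on this scale. Dock2 stood at 584.9, 637.8 and 720.7 CPM with DMSO and at 609.8, 613.6, 837.2 and 608.6 CPM with Pracinostat. Pracinostat replicate 3 stood well above the other Pracinostat libraries, which lay within the DMSO range. The fold change was 0.04 ± 0.16 (SE), and -0.08 without that library. Dock8, an exchange factor for CDC42 in leukocytes, stood at 476.3, 531.2 and 309.1 CPM with DMSO and at 480.0, 464.0, 573.2 and 514.0 CPM with Pracinostat. DMSO replicate 3 was the low library, and the fold change of 0.21 ± 0.18 (SE, unadjusted p = 0.266, edgeR adjusted p = 1.00) became 0.01 without it.

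The adaptors and PAK1 were near 0 as well. Crk and Crkl, which link phosphorylated receptors and scaffolds to DOCK proteins, had fold changes of 0.12 ± 0.17 and 0.13 ± 0.18 (SE). Pak1, a kinase switched on by RAC and CDC42, stood at 52.0, 54.6 and 32.8 CPM with DMSO and at 46.6, 48.2, 43.9 and 51.1 CPM with Pracinostat. The Pracinostat values lay between the low DMSO replicate 3 and the other DMSO libraries. Gulp1, the adaptor of a separate engulfment route through MEGF10- and LRP1-type receptors, was the member that did not pass the filter. It had 2 counts in DMSO replicate 1 and 0 in the other 6 libraries, which allows at most 0.177 to 0.296 CPM in each of those 6 (3 counts of the total, counting error only).

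Of the 5 WAVE and WASP genes 3 had positive and 2 negative estimates, with 0 called. Nckap1l, the blood-cell subunit HEM1 of the WAVE complex, stood at 772.1, 678.2 and 772.6 CPM with DMSO and at 758.6, 821.4, 865.5 and 810.0 CPM with Pracinostat. The highest 3 values were Pracinostat libraries, and Pracinostat replicate 1 lay within the DMSO range. The fold change was 0.14 ± 0.14 (SE), with a 95% interval of -0.16 to 0.43. Wasf2, the WAVE protein of most non-neuronal cells, stood at 328.1, 321.2 and 383.7 CPM with DMSO and at 318.5, 380.5, 473.5 and 329.1 CPM with Pracinostat. As with Dock2, the highest value was in Pracinostat replicate 3, and the fold change of 0.12 ± 0.17 (SE) became -0.0057 without that library.

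Cyfip1, the WAVE subunit that binds RAC, averaged 481.2 ± 11.7 CPM (SD, n = 3) and 478.6 ± 55.1 CPM (SD, n = 4), with 558.5 CPM in Pracinostat replicate 3. Abi1, which holds the WAVE complex together, was lowest in that same library, at 102.8 CPM against 117.9 to 129.6 CPM in the other 6. Was, the WASP protein of blood cells, stood at 119.0, 72.2 and 74.1 CPM with DMSO and at 113.9, 107.3, 88.1 and 81.8 CPM with Pracinostat. DMSO replicate 1 was the highest of all 7, and the other DMSO libraries were the lowest. Its fold change was 0.14 ± 0.21 (SE, unadjusted p = 0.502, edgeR adjusted p = 1.00) and 0.42 without DMSO replicate 1.

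All 5 Arp2/3 genes among the members had negative estimates, from -0.25 to -0.01, and 0 were called. The sign did not hold for the Arp2/3 genes outside the module. Of these, Arpc1a (0.50) and Arpc5l (0.30) were positive and Arpc1b (-0.22) and Arpc4 (-0.21) negative, also not called. The 5 member transcripts were measured in the same libraries, so their shared sign is not a count of independent results. Arpc3, a small structural subunit, had the estimate farthest below 0 and the largest coefficient of variation of the tested members. It stood at 299.4, 173.1 and 218.1 CPM with DMSO and at 247.4, 193.8, 149.1 and 183.5 CPM with Pracinostat. The highest value was in DMSO replicate 1 and the lowest in Pracinostat replicate 3, while DMSO replicate 2 was below 3 of the 4 Pracinostat libraries. The fold change was -0.25 ± 0.21 (SE, unadjusted p = 0.244, edgeR adjusted p = 1.00), and -0.01 without DMSO replicate 1.

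Arpc5, another structural subunit, averaged 157.3 ± 31.7 CPM (SD, n = 3) and 148.5 ± 20.8 CPM (SD, n = 4). Arpc2, part of the core that holds the complex on the mother filament, averaged 405.7 ± 46.0 CPM (SD, n = 3) and 379.4 ± 32.9 CPM (SD, n = 4). Actr2 and Actr3, the actin-related proteins ARP2 and ARP3 that seed the new filament, had fold changes of -0.09 ± 0.14 and -0.01 ± 0.14 (SE). Actr3 stood at 811.4, 728.6 and 754.9 CPM with DMSO and at 859.8, 754.7, 685.0 and 738.0 CPM with Pracinostat, with the highest and the lowest value in Pracinostat libraries.

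Myo1e, a class I myosin that ties the membrane to branched actin, had the largest fold change of the module, 0.36 ± 0.20 (SE, unadjusted p = 0.0877, edgeR adjusted p = 1.00). It stood at 166.5, 140.2 and 263.8 CPM with DMSO and at 245.9, 262.1, 236.9 and 232.4 CPM with Pracinostat. The Pracinostat libraries were close together (coefficient of variation 5.36%), DMSO replicates 1 and 2 lay below all of them, and DMSO replicate 3 above all of them. DMSO replicate 3 was thus the only DMSO library not below the Pracinostat libraries. Leaving it out fixed the lack of overlap in advance (15.3% of all genes did not overlap in that fit). The fold change was then 0.67, with an unadjusted p of 0.00198 in edgeR (5.51% of all genes were under 0.05). The library left out is picked here for its Myo1e value, so that p is not a separate test. After adjustment Myo1e was not called there either, where 0.0178% of all genes were. DMSO replicate 3 was also the library with low Dock8 and Pak1. Its share of monocyte-derived macrophage markers was the lowest of the DMSO libraries (0.120%), that of microglia markers the highest (0.326%), and that of neutrophil markers, 0.000795% of counts, was the lowest of the 3. Their part in these values was not tested.

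Myo1f, the class I myosin of blood cells, and Myh9, the heavy chain of non-muscle myosin IIA, had fold changes of -0.07 ± 0.16 and -0.10 ± 0.14 (SE). Myh9 had the largest count of the members, at 2763 ± 295.6 CPM (SD, n = 3) in DMSO libraries and 2579 ± 146.6 CPM (SD, n = 4) in Pracinostat libraries. Of the 3 actin-binding genes, all had negative estimates and 0 were called. Cfl1, the filament-severing protein cofilin, stood at 1277, 861.0 and 1286 CPM with DMSO and at 1176, 1070, 1026 and 894.4 CPM with Pracinostat. DMSO replicate 2 was below every Pracinostat library and the other DMSO libraries were above every one. Pfn1, profilin, which feeds actin monomers to growing filaments, was also highest in DMSO replicates 1 and 3, at 406.1, 318.3 and 410.4 CPM with DMSO and 375.4, 341.7, 315.1 and 290.9 CPM with Pracinostat. Their fold changes were -0.13 ± 0.17 and -0.19 ± 0.16 (SE). Coro1a, the leukocyte coronin that binds F-actin and Arp2/3, averaged 369.0 ± 41.5 CPM (SD, n = 3) and 346.9 ± 6.6 CPM (SD, n = 4).

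Neither arm of the module held a called gene. The 13 tested GTPase, exchange factor and adaptor genes had a median fold change of 0.02, with 8 positive and 5 negative. The 16 WAVE, Arp2/3, myosin and actin-binding genes had a median of -0.08, with 4 positive and 12 negative. The difference between the arms was not tested. Without DMSO replicate 2 and Pracinostat replicate 1, the collagen-rich libraries, 9 members had groups that did not overlap, of 29, where 21.2% of all genes did in that fit. These were Cdc42, Rhoa, Rhog, Arpc2, Arpc3, Arpc5, Cfl1 and Pfn1, lower with Pracinostat, and Nckap1l, higher. The overlap of these members lay only in the libraries left out, so leaving them out fixed that outcome and its directions in advance. In that fit Arpc3 was at -0.55 (unadjusted p = 0.021) and Cfl1 at -0.35 (unadjusted p = 0.0492) by edgeR, where 4.56% of all genes were under 0.05, with 0 members and 0 genes called after adjustment. Only 2 DMSO libraries remain there. Without DMSO replicate 2 alone, Rhog, Arpc2, Coro1a, Cfl1 and Pfn1 did not overlap between the groups, where 13.6% of all genes did not. For each of these DMSO replicate 2 was the only DMSO library not above every Pracinostat library, so that outcome too was fixed in advance.

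**Figure D3:**
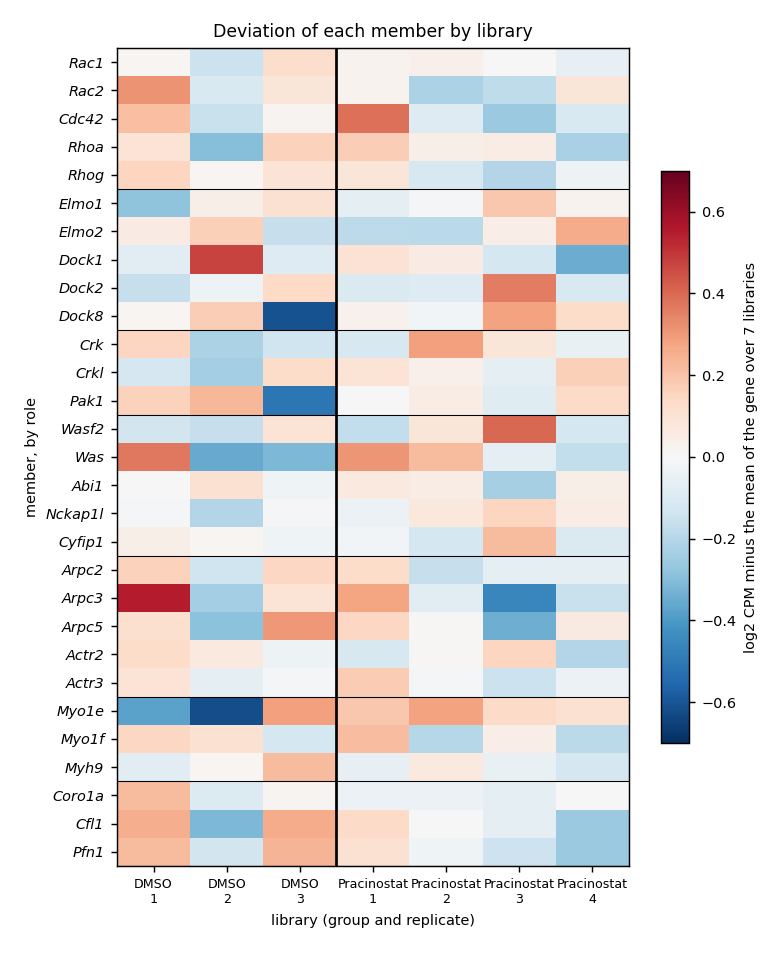
Log2 CPM of each tested member (rows, by role) in each library (columns) minus the mean of the gene over the 7 libraries, red for above and blue for below that mean. The vertical line separates DMSO from Pracinostat. Strong colours include Myo1e in DMSO replicate 2, Dock8 and Pak1 in DMSO replicate 3, and Arpc3 in DMSO replicate 1 and Pracinostat replicate 3.

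The spread between libraries differed from member to member. Over the 7 libraries the coefficient of variation ran from 5.79% (Rac1) to 24.3% (Arpc3), with a median of 12.6%, and the highest library exceeded the lowest by 1.21- to 2.01-fold. In 19 of 29 members the coefficient was larger among the DMSO than among the Pracinostat libraries. Pracinostat replicate 3 was the highest library for 7 members and the lowest for 6. That library also had the largest share of microglia markers (0.494%) and the smallest of monocyte-derived macrophage markers (0.0568%) of the 7, and their part in its values was not tested. DMSO replicate 2 was the lowest library for 9 members.

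In some libraries the members' deviations went with the length of their transcripts, which the choice of genes did not use. The longest coding transcripts ran from 861 bases (Pfn1) to 7805 bases (Dock8). Across the 29 members, Spearman's rho between length and a member's deviation from its mean was -0.78 in DMSO replicate 1, -0.54 in Pracinostat replicate 1 and 0.68 in Pracinostat replicate 3, and lay between -0.24 and 0.38 in the other libraries. Short transcripts such as Arpc3 and Cdc42 were low, and long ones such as Dock2, Dock8 and Wasf2 high, in Pracinostat replicate 3. Others went the other way there, with the long Dock1 (-0.12), Crkl (-0.07) and Myh9 (-0.05) below their means and the short Rhoa (0.05) above. Over 12125 tested genes with a length the corresponding values were -0.22, -0.13 and 0.04. Those used log2 of CPM plus 1, and include genes less abundant than any tested member, so they are not matched to the members. Against the fold change, length had a rho of 0.47 over the 29 members (Pearson's r = 0.52) and 0.05 over all genes. Over the 4005 genes with a length that were at least as abundant as Pak1 it was 0.09. All these values used the longest transcript only, and the median length orders the members otherwise. Of the 10 members with the shortest transcripts 8 had negative estimates, with a median of -0.09, and of the 10 with the longest 4 did, with a median of 0.06. These are correlations across genes that share libraries and roles, given as a description.

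**Figure D4:**
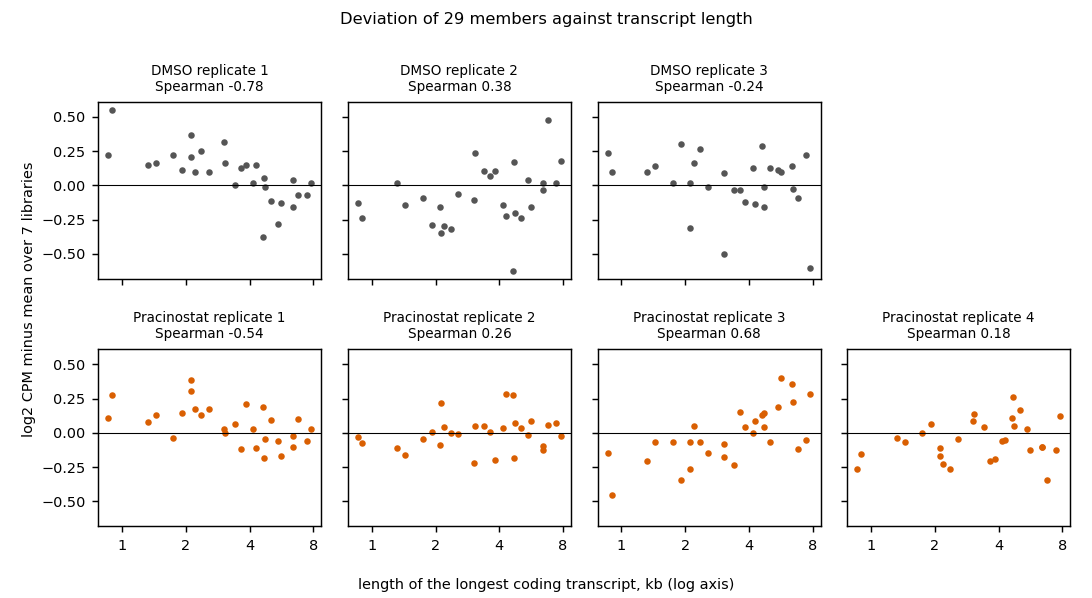
Deviation of each of 29 members from its mean over the 7 libraries (y axis, log2 CPM) against the length of its longest coding transcript (x axis, kilobases on a log axis), with a panel for each library. Points slope downward in DMSO replicate 1 (Spearman's rho -0.78) and upward in Pracinostat replicate 3 (0.68).

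Ratios of related genes within a library do not depend on how libraries are scaled. For 7 pairs the log2 ratio of counts was compared by an exact permutation test over all 35 ways of assigning the labels, counting differences in either direction, for which the smallest possible p is 0.0286. None of the 7 pairs passed, and the Benjamini-Hochberg adjusted p was 1 for each. For blood-cell Rac2 against Rac1 the DMSO libraries averaged -0.73 ± 0.18 (SD, n = 3) and the Pracinostat libraries -0.91 ± 0.18 (SD, n = 4); the exact permutation p was 0.286. Dock2 stood against Dock1 at 2.22 ± 0.37 (SD, n = 3) and 2.43 ± 0.32 (SD, n = 4), for which the exact permutation p was 0.514. The pair with the smallest p was Myo1f against Myo1e, at 0.91 ± 0.61 (SD, n = 3) and 0.43 ± 0.22 (SD, n = 4), for which the exact permutation p was 0.229. Its DMSO values were 1.16, 1.36 and 0.22, the low one again in replicate 3, and the Pracinostat values ran from 0.16 to 0.66. The differences of the other 4 pairs, Elmo1 to Elmo2, Dock8 to Dock2, Crk to Crkl and Was to Wasf2, ran from -0.0076 to 0.21 with exact permutation p from 0.629 to 1.

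**Figure D5:**
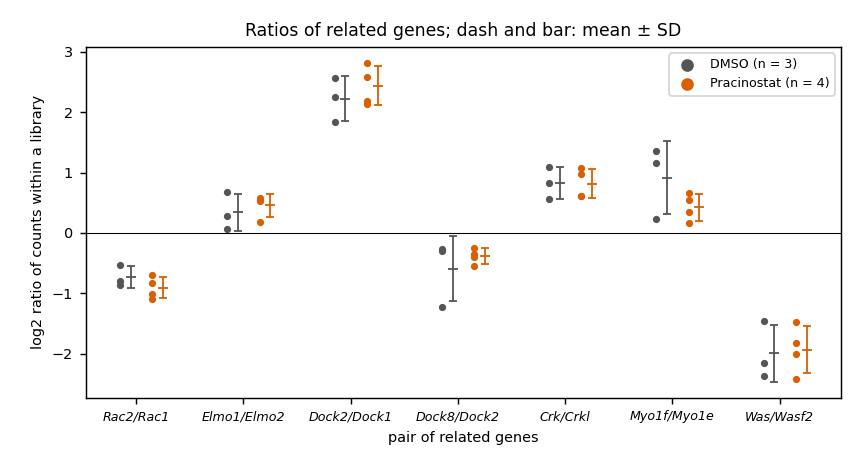
Log2 ratio of counts of related genes within each library (y axis) for 7 pairs (x axis), with points for libraries and a dash and bar beside them for the mean ± SD of the group. Groups overlap in every pair, and for Myo1f to Myo1e and Dock8 to Dock2 a DMSO library lies apart from the other DMSO libraries.

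No gene of the wider pathway was called either. Of 97 other genes on the pathway list, all passed the filter, 0 were called higher and 0 lower by edgeR, and 2 had an unadjusted p under 0.05. DESeq2 and limma-voom also called 0 of them. Estimates were positive for 43 and negative for 54, with a median of -0.02, and 3 had groups that did not overlap. Of all genes tested, 4.18% were under the unadjusted threshold and 6.1% did not overlap, so neither count stands above the background, and the genes named next are given as values only. On the higher side the smallest p among genes whose mean log2 CPM reached 2 were those of Rhoq, a CDC42-like GTPase also called TC10 (0.59 ± 0.20, SE), Dock4, a RAC exchange factor (0.32 ± 0.15), and the Arp2/3 subunit Arpc1a (0.50 ± 0.29). Rhoq stood at 55.0, 79.1 and 57.8 CPM with DMSO and at 78.3, 91.4, 120.9 and 93.4 CPM with Pracinostat. A single DMSO value lay above the lowest Pracinostat value, and the unadjusted p was 0.0117 (edgeR adjusted p = 1.00). On the lower side were Def6, an exchange factor of blood cells (-0.38 ± 0.18), the capping protein Capg (-0.50 ± 0.24) and Arhgdib, which keeps GTPases in the cytosol (-0.35 ± 0.18).

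Def6 was at 71.0 to 88.6 CPM with DMSO and 53.0 to 66.2 CPM with Pracinostat, without overlap. The other pathway genes whose groups did not overlap, named after their values were seen, were Wipf2, a WASP-binding protein (0.25 ± 0.17), and Wasf1. Wasf1, the WAVE protein best known from neurons, was also the second gene under the unadjusted threshold, but it stood at 0 CPM in 2 DMSO libraries and 0.157 CPM in the third, against 0.860 to 2.51 CPM with Pracinostat. Summed neuron markers were at 0.000897 to 0.00175% of counts with DMSO and 0.000697 to 0.00162% with Pracinostat. Actb, the main actin of these cells, named after its values were seen, was at -0.07 ± 0.16.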

How the data were processed

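The authors deposited a table of expected counts for gene symbols, given as whole numbers and not normalized. The tools in the submitters' processing notes are STAR and RSEM, beside Trim Galore, FastQC, MultiQC and DESeq2, without versions or roles, and the mouse build is GRCm39. Annotation and strandedness in counting: not given in the sources used here. Coordinates are left out. The available annotation, GENCODE M21, is on GRCm38 and served only for transcript lengths and similar transcripts (blastn 2.17.0). Of the rows, 3205 carry an Ensembl identifier and hold 1.21% of counts. The library kit was a stranded total RNA kit, per the labels' protocols.

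Pracinostat and DMSO were compared by robust quasi-likelihood tests in edgeR 4.0.16 under R 4.3.3, after filterByExpr (minimum count 10) and TMM scaling, with p-values for either direction adjusted over 15822 genes. Standard errors are the log2 fold change over the square root of F. Levels are TMM-scaled CPM, and marker shares are percent of raw counts. Ratios used counts plus 0.5 (scipy 1.17.1). The scripts were tested on simulated data. No pair of libraries looked like a duplicate (lowest chi-square over its degrees of freedom, 30.04). Members and lists were chosen with earlier results of these data known. All members are named, and of other pathway genes the 3 with the smallest p in each direction. Alternatives were the scaling, filter, DESeq2 1.42.0, limma-voom 3.58.1, left-out libraries, a replicate block and a pseudocount of 1.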

Additional observations from a re-analysis of the deposited data

Results flagged for a closer look

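In the 4 Pracinostat libraries 45 values were screened for a library far from the others, and 4 were found. By chance about 1 value in 20 would be flagged. The values share libraries and genes, and whether 4 of 45 exceeds chance was not tested. With 3 libraries, the DMSO group was too small to be screened. Dock2 stood at 837.2 CPM in Pracinostat replicate 3, against 608.6 to 613.6 CPM in the other Pracinostat libraries. Abi1 stood at 102.8 CPM in that library, against 124.1 to 126.4 CPM. The log2 ratio of Elmo1 to Elmo2 was 0.1735 in Pracinostat replicate 4, while the other Pracinostat libraries gave 0.5242 to 0.5758 and the DMSO libraries 0.067 to 0.67. Col1a1 stood at 439.9 CPM in Pracinostat replicate 1, against 11.7 to 23.9 CPM.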

How the results depend on the processing

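The count of called members was 0 in all 15 alternatives, and so was that of other pathway genes. Over all genes the count of 0 became 63 without a low-count filter, 27 with DESeq2 and 4 with the replicate block, and 0 to 3 when a library was left out. Members with an unadjusted p under 0.05 numbered 1 without a filter (Myo1e), where 5.29% of all genes were. They numbered 2 without both collagen-rich libraries (4.56% of all genes) and 0 to 1 when a library was left out (3.42 to 5.51%). Members whose groups did not overlap numbered 1 with total counts only (6.1% of all genes) and 9 without both collagen-rich libraries (21.2%). They numbered 0 to 5 when a library was left out, where 9.25 to 15.3% of all genes did not overlap. Of 435 member fold changes under alternatives, 39 had the opposite sign and 0 passed the threshold, in 15 members. Rac1 was at -0.0091 with DESeq2 size factors, -0.017 with total counts, -0.0063 with a minimum count of 50, -0.0091 with DESeq2 and -0.068 without both collagen-rich libraries. Rhoa was at -0.00085 with total counts. Without both collagen-rich libraries Rhoa was at -0.16, Elmo2 at 0.11, Was at -0.056, Cyfip1 at 0.0097, and the log2 ratios at 0.064 for Crk to Crkl and -0.17 for Was to Wasf2. In the fits that left out a library, signs turned within ranges of -0.068 to 0.066 (Rac1), -0.18 to 0.073 (Cdc42), -0.11 to 0.10 (Rhoa), -0.033 to 0.15 (Elmo1), -0.15 to 0.045 (Elmo2), -0.29 to 0.015 (Dock1), -0.085 to 0.13 (Dock2), -0.17 to 0.16 (Pak1), -0.0057 to 0.21 (Wasf2), -0.071 to 0.029 (Abi1), -0.090 to 0.029 (Cyfip1), -0.23 to 0.055 (Arpc5), -0.070 to 0.037 (Actr3) and -0.16 to 0.0055 (Coro1a). The ratios ran from -0.019 to 0.28 (Elmo1 to Elmo2), -0.10 to 0.37 (Dock8 to Dock2), -0.14 to 0.12 (Crk to Crkl) and -0.13 to 0.33 (Was to Wasf2). The cause was not tested.

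The labels do not say that equal replicate numbers mark pairs. Between the groups, deviations of same-numbered libraries correlated at 0.039 to 0.156, against -0.098 to 0.073 for unlike numbers. Pairs within a group are not in these ranges. Of 6 libraries with a same-numbered partner, 5 correlated best with it, while DMSO replicate 2 correlated more with Pracinostat replicate 4 (0.073). In the replicate block, which leaves out Pracinostat replicate 4, 0 members were called, Cyfip1 was at 0.0030 and the log2 ratio of Crk to Crkl at 0.063. With 3 pairs the block cannot give a ratio test a p under 0.05.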
